A study of Mus musculus with 6 samples.

Results

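The collagen genes were taken as every gene of the bulk RNA-Seq table whose symbol is written as Col, a type number, the letter a and a chain number, which gave 44 of the 55351 genes counted. They were looked at in microglia from the spinal cords of unmanipulated C57BL/6 mice, young (8 to 12 weeks) and middle-aged (40 to 44 weeks), none of which had been treated. Per the labels, cells were freed from perfused cords with collagenase A and DNase I, parted from myelin on Percoll, stained for CD45 and sorted, with 4 cords pooled per sample, and the study's methods identify microglia as CD45-intermediate CD11b+ cells. Each age had 1 library, with 79373420 counted reads in the young and 76293436 in the middle-aged library, so differences by age could not be checked in replicates and no p-value is given. The single-cell tables add CD45+ cells from the cords of young and middle-aged recipients on day 6 or day 10 after the transfer of myelin-reactive CD4+ T cells, which induces experimental autoimmune encephalomyelitis (EAE), again with 1 library per age and day.

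Collagens are secreted or membrane-bound proteins whose chains wind around each other into a helix, and their classes differ in what they build. Fibril-forming types give tissue its tensile strength, and type IV collagen makes the sheet-like network of basement membranes. Type VI collagen forms beaded filaments at the cell surface, and smaller classes decorate fibrils, span the plasma membrane or carry cleavable end fragments such as endostatin. In the CNS most collagen lies in the basement membranes of vessels, in the meninges and in the choroid plexus, and endothelial cells, mural cells and fibroblasts are its usual sources. The question was which of these genes were higher or lower in the middle-aged library, and whether microglia seen as single cells held them.

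The genes were set out in this way because *Col6a3*, which encodes the largest chain of type VI collagen, had been seen to be higher in the middle-aged library while genes of vessels were lower. The bulk values below are therefore a description of these libraries and support nothing beyond them. Levels are counts divided by the library total and scaled to 1000000 counts (CPM), and a log2 ratio is that of middle-aged over young CPM. Brackets hold its exact conditional binomial 95% interval, which covers counting error only. Of the 44 genes, 39 had a count, and *Col2a1*, *Col24a1*, *Col6a4*, *Col6a5* and *Col9a1* were at 0 in both libraries. Ratios were read for the 24 genes whose counts summed to at least 100 over both libraries. At that limit, *Col7a1* (100 counts) and *Col6a2* (106 counts) were the lowest inside, and *Col9a2* (99 counts) and *Col4a3* (97 counts) the highest outside.

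Of these 24 genes, 13 (54.2%) were at least 2-fold lower in the middle-aged library, where 6.92% of the 14821 genes with 100 or more counts were. A single collagen, *Col6a3*, was at least 2-fold higher (4.17% of the 24), beside 1.16% of all genes, and the other 10 lay within 2-fold. In bulk samples, fewer cells of a type and less RNA per cell cannot be told apart. The median log2 ratio of the 24 genes was -1.43, and that of all 14821 genes was -0.0072. The summed level was 681.6 CPM in the young and 670.1 CPM in the middle-aged library (-0.02 [-0.04 to -0.01] on the log2 scale). The most abundant collagen, *Col27a1*, took 51.2% of all collagen counts in the young and 61.4% in the middle-aged library. *Col15a1* took 13.1% in both libraries, and *Col6a3* took 5.27% in the young and 15.4% in the middle-aged library. The share of *Col4a1* was 7.999% in the young and 1.95% in the middle-aged library, and that of *Col4a2* was 5.96% and 1.12%. In all, *Col27a1* and the 2 next most abundant genes of each library held 72.4% of collagen counts in the young library and 89.9% in the middle-aged library.

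**Figure D1:**
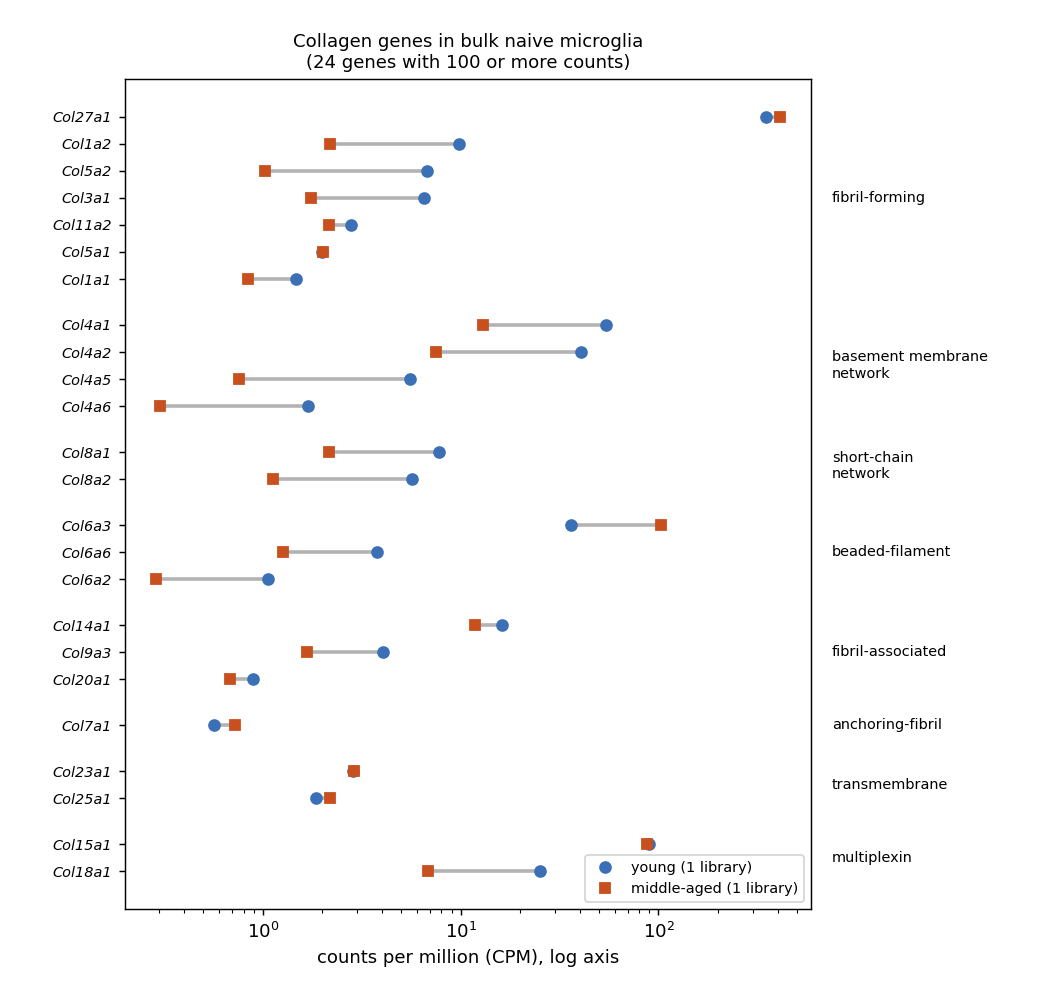
Level of the 24 collagen genes with 100 or more counts, in CPM on a log axis, grouped by class, with a circle for the young and a square for the middle-aged library. The 13 genes with the square well to the left of the circle include all 4 basement membrane and both short-chain network genes, and *Col6a3* has its square to the right (103.5 against 35.9 CPM).

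Type IV collagen, the network of basement membranes, had the lowest median log2 ratio of the classes (-2.46 over 4 genes). *Col4a1* and *Col4a2* encode the chains found in nearly every basement membrane, vessels included. They lie head to head on chromosome 8, *Col4a1* from 11198423 to 11312826 on the minus strand and *Col4a2* from 11312805 to 11449287 on the plus strand. Their start sites are 21 bases apart and overlap, so that the 300-base windows around them (250 bases before the start and 50 after, RefSeq, GRCm38.p6) share 78 bases. Both windows are printed from 5′ to 3′ on the strand of their gene, since both genes were lower in the middle-aged library, and capitals mark the shared bases.
Col4a1 (chr8:11312777-11313076, minus strand): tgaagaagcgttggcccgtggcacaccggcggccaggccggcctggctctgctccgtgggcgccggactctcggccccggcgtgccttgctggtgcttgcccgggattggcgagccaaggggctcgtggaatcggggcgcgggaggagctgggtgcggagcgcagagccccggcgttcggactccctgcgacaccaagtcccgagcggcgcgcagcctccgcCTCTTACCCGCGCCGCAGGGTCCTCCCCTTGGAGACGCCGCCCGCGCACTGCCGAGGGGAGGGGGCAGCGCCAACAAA
Col4a2 (chr8:11312555-11312854, plus strand): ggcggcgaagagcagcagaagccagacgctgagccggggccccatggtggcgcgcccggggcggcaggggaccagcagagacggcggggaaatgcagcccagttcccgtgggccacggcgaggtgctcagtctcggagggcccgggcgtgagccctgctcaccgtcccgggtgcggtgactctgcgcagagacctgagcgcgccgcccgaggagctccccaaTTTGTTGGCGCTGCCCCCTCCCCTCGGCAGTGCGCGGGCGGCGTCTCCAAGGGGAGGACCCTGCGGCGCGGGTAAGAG

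*Col4a1* had 4328 counts (54.5 CPM) in the young and 995 (13.04 CPM) in the middle-aged library, a log2 ratio of -2.06 [-2.16 to -1.96]. *Col4a2* had 3222 counts (40.6 CPM) and 574 (7.52 CPM), a log2 ratio of -2.43 [-2.56 to -2.30]. The young library was thus 4.18-fold and 5.40-fold higher, and the intervals of these neighbours did not overlap. *Col4a5* and *Col4a6*, the chains of the basement membranes of smooth muscle and some epithelia, lie head to head on chromosome X with start sites 1343 bases apart. *Col4a5* had 439 counts in the young and 58 in the middle-aged library, the lowest ratio of the 24 genes (-2.86 [-3.28 to -2.47], 7.28-fold). *Col4a6* had 134 and 23 counts (-2.49 [-3.19 to -1.84]). *Col4a3* (73 and 24 counts) and *Col4a4* (50 and 41 counts), the chains of kidney and lung basement membranes, were under the limit. The 6 genes summed to 104 CPM in the young and 22.5 CPM in the middle-aged library, a log2 ratio of -2.21 [-2.28 to -2.13].

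The short-chain network genes were lower in the middle-aged library as well. *Col8a1* and *Col8a2* encode type VIII collagen, a network under endothelial cells and in vessel walls. *Col8a1* had 617 counts in the young and 165 in the middle-aged library (-1.85 [-2.10 to -1.60]), and *Col8a2* had 448 and 86 (-2.32 [-2.67 to -1.99]). *Col10a1*, a collagen of growth plate cartilage, had 28 and 61 counts, under the limit, so that its higher level in the middle-aged library (1.18 [0.51 to 1.88]) was not counted.

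The fibril-forming class was split. *Col1a2* and *Col3a1*, which encode the fibrillar chains made by fibroblasts and vessel walls, were lower in the middle-aged library. *Col1a2* had 776 counts in the young and 167 in the middle-aged library (-2.16 [-2.41 to -1.92]), and *Col3a1* had 516 and 134 (-1.89 [-2.17 to -1.61]). *Col5a2*, a chain of type V collagen that sets fibril width, had 535 and 78 counts (-2.72 [-3.08 to -2.38]). Its partner chain *Col5a1* had 158 and 154 counts (0.02 [-0.31 to 0.35]), so the chains of type V collagen had different ratios. *Col1a1*, the main chain of type I collagen, had 117 and 64 counts (-0.81 [-1.28 to -0.36]), within 2-fold, and its interval did not reach that of *Col1a2*. *Col11a2*, a cartilage collagen, had 221 and 164 counts (-0.37 [-0.67 to -0.08]).

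*Col27a1*, a fibrillar collagen known from cartilage, stood apart in level. It had 27705 counts (349.0 CPM) in the young and 31391 (411.5 CPM) in the middle-aged library, a log2 ratio of 0.24 [0.21 to 0.26]. Per kilobase of exon, a scale on which genes can be compared, its level was 26.8 CPM in the young library, against 14.1 for *Col15a1*, 7.31 for *Col4a1*, 6.13 for *Col4a2*, 3.60 for *Col18a1* and 3.002 for *Col6a3*. In the middle-aged library the per-kilobase order was *Col27a1* (31.6 CPM), *Col15a1* (13.8), *Col6a3* (8.65), *Col4a1* (1.75), *Col14a1* (1.69) and *Col4a2* (1.14). *Col6a3* was thus above both type IV genes in the middle-aged library and below both in the young library.

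Type VI collagen held the single gene past 2-fold in the other direction. *Col6a3* lies on chromosome 1 from 90765923 to 90843971 on the minus strand, and no exon of another gene overlaps its own. It had 2851 counts (35.9 CPM) in the young and 7897 (103.5 CPM) in the middle-aged library, a 2.88-fold difference and a log2 ratio of 1.53 [1.46 to 1.59]. Its obligate partner chains were at a far lower level in both libraries. *Col6a1* had 37 and 18 counts, or 0.106 and 0.0539 CPM per kilobase, and *Col6a2* had 84 and 22 counts, or 0.127 and 0.0346 CPM per kilobase. *Col6a2* was lower in the middle-aged library (-1.88 [-2.62 to -1.18]), as was *Col6a6*, a chain that can take the place of *Col6a3* (299 and 96 counts, -1.58 [-1.93 to -1.25]). The chains that form type VI collagen together were therefore neither at like levels nor on the same side between the libraries.

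The windows of *Col6a3* and *Col27a1*, 2 of the 3 most abundant collagens of the middle-aged library, are shown beside those of the type IV pair, with capitals for a GC box (GGGCGG on either strand).
Col6a3 (chr1:90843922-90844221, minus strand): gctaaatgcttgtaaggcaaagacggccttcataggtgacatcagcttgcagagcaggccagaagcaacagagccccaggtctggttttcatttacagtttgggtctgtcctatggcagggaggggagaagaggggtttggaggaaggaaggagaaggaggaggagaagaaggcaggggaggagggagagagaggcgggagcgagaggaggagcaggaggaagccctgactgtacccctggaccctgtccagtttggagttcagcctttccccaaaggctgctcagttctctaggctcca
Col27a1 (chr4:63215162-63215461, plus strand): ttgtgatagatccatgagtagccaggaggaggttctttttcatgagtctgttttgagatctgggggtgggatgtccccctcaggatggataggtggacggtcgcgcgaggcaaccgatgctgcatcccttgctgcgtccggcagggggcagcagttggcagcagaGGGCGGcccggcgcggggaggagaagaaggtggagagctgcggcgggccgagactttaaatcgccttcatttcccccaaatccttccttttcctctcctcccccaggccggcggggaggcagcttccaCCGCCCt

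The window of *Col6a3* holds none of the motifs searched, and that of *Col27a1* holds 2 GC boxes. A RefSeq window was found for 35 of the 44 genes, 38 windows in all. Read on both strands, GGGCGG was present in 23 of these 38 windows (60.5%) and in 35.7% of all 32851 windows. The CCAAT box was present in 34.2% and 37.4%, the TATA box (TATAAA) in 13.2% and 13.6%, and GAGGAAGT, the core bound by the myeloid factor PU.1, in 0 of 38 windows and 3.20% of all windows. These are matches of letters and say nothing of binding.

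The multiplexins, basement membrane collagens that release antiangiogenic end fragments, were split as well. *Col15a1* had 7114 counts (89.6 CPM) in the young and 6676 (87.5 CPM) in the middle-aged library, a log2 ratio of -0.03 [-0.08 to 0.01]. *Col18a1*, the source of endostatin, had 2006 (25.3 CPM) and 522 (6.84 CPM), a log2 ratio of -1.89 [-2.03 to -1.75]. *Col18a1* was thus on the side of the type IV genes, and *Col15a1* was level.

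Among the fibril-associated genes, *Col9a3*, a cartilage collagen, had 322 counts in the young and 127 in the middle-aged library (-1.29 [-1.59 to -0.98]), with 6.07% of its exon bases shared with *Tcfl5*. *Col14a1*, which binds fibrils in stroma, had 1288 and 906 counts (-0.45 [-0.57 to -0.33]). *Col20a1* had 71 and 52 counts (-0.39 [-0.94 to 0.14]). The transmembrane genes were level. *Col23a1* had 227 and 220 counts (0.01 [-0.26 to 0.29]), and *Col25a1*, whose ectodomain is found in amyloid plaques, had 147 and 166 (0.23 [-0.10 to 0.56]). *Col7a1*, the anchoring-fibril collagen of skin, had 45 and 55 counts (0.35 [-0.25 to 0.95]). The 15 genes with 1 to 99 counts were higher in the middle-aged library for 3 and lower for 12, with few counts behind each.

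**Figure D2:**
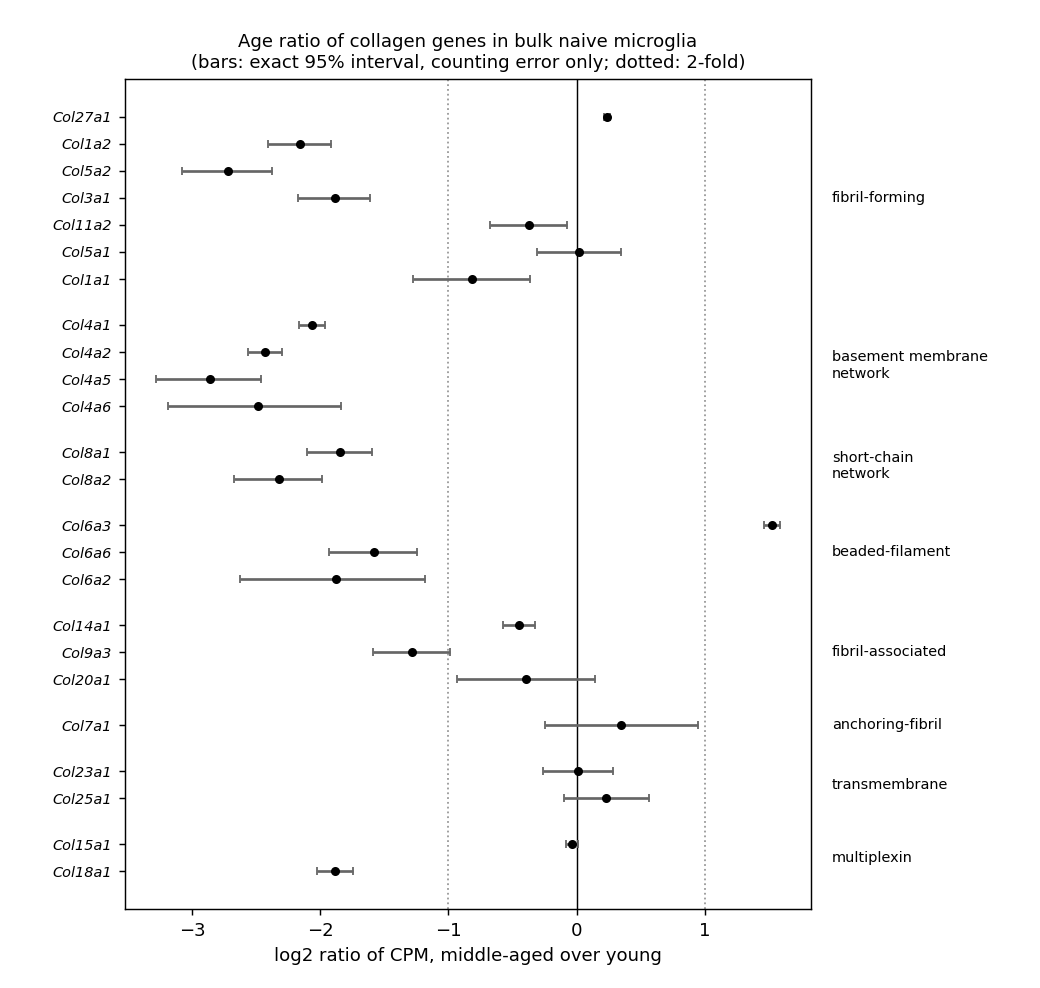
Log2 ratio of CPM, middle-aged over young, for the 24 collagen genes by class, with exact 95% intervals of counting error and dotted lines at 2-fold. The intervals of 12 genes lie wholly below -1, that of *Col6a3* lies above 1, and those of 6 genes include 0.

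Low counts were even more often than odd. Among genes with 1 to 20 counts, 73.1% of 8851 genes in the young and 72.5% of 8734 in the middle-aged library had an even count, so the intervals may be too narrow. With every count halved, 11 genes in place of 12 had an interval wholly below -1, 7 in place of 6 had one that included 0, and that of *Col6a3* remained above 1.

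The genes that make, cross-link, degrade and bind collagen were read from lists set beside the collagens, and are given as counts of those with 100 or more reads. Over all 14821 such genes, 6.92% were at least 2-fold lower and 1.16% at least 2-fold higher. Of 22 genes for folding and modification, 3 were at least 2-fold lower and none higher, with a median log2 ratio of -0.14. These were *Serpinh1*, the collagen-specific chaperone HSP47 (913 and 208 counts, -2.08), *Fkbp10*, a prolyl isomerase of the endoplasmic reticulum (131 and 26, -2.28), and *Plod2*, a lysyl hydroxylase (83 and 26, -1.62). Of 7 genes for processing and cross-linking, 2 were lower (median -0.42), namely *Adamts14*, a procollagen N-propeptidase (175 and 32 counts, -2.39), and *Pcolce*, an enhancer of C-propeptide removal (457 and 203, -1.11). None of 8 genes of collagen breakdown was past 2-fold (median -0.20). Among these, *Mrc2*, an endocytic collagen receptor, had 17758 and 20504 counts (0.26), and *Mmp14*, a membrane collagenase, had 6497 and 5059 (-0.30).

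Collagen receptors and the matrix proteins that stand beside collagen in vessels and stroma were read in the same way, again beside 6.92% of all genes at least 2-fold lower. Of 10 collagen receptors, 6 were lower (median -1.44), among them *Antxr1* (681 and 79 counts, -3.05), *Itga1*, the integrin alpha chain that binds type IV collagen (1758 and 265, -2.67), *Ddr1*, a collagen-activated kinase (422 and 70, -2.53), and *Cspg4*, a pericyte proteoglycan (3715 and 749, -2.25). Of 17 basement membrane partners, 10 were lower (median -1.66), among them *Fbln5* (2193 and 258 counts, -3.03) and the laminin chains *Lama3* (830 and 127, -2.65), *Lama4* (711 and 139, -2.30) and *Lamb1* (342 and 74, -2.15). Of 14 partners of fibrillar matrix, 8 were lower (median -1.88), among them *Tnxb* (129 and 15 counts, -3.05), *Fbn1*, a microfibril protein (578 and 69, -3.01), *Eln*, elastin (3180 and 415, -2.88), and *Aspn* (474 and 77, -2.56). Of 20 genes of TGF-beta signalling, which induces fibrillar collagens in many cells, 8 were lower (median -0.20), among them *Ltbp4* (-2.90), *Ccn1* (-2.73), *Tgfb2* (-2.47) and *Ltbp1* (-2.38). No gene of these lists was at least 2-fold higher, beside 1.16% of all genes.

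Markers of several other cell types were lower as well, where 6.92% of all genes were at least 2-fold lower. Some markers are also in the lists above, so the lists are not separate observations. These are *Cspg4* (mural), *Mrc1* (border-associated macrophage), *Mmp8* (neutrophil), and *Dcn*, *Lum* and *Fmod* (fibroblast). Of 12 endothelial markers, 11 were at least 2-fold lower in the middle-aged library (median -2.21), and they summed to 521 CPM in the young and 147 in the middle-aged library. *Cldn5*, the tight-junction protein of brain endothelium, had 5124 and 892 counts (-2.47). Of 8 mural markers, 7 were lower (median -2.21, 681 and 150 CPM), with *Pdgfrb* at 2738 and 513 counts (-2.36). Of 6 fibroblast markers, 5 were lower (median -1.77, 48.5 and 9.92 CPM), and all 7 choroid plexus markers were (median -2.28, 1036 and 171 CPM). The CPM sums take in every gene of a list, also those under 100 counts, and so 10 mural, 10 fibroblast and 6 Schwann cell markers. Of 5 Schwann cell markers 3 were lower, but the list was level in sum (368 and 362 CPM). Of 7 markers of border-associated macrophages 5 were lower (median -1.14, 261 and 123 CPM). None of the 9 microglial markers was past 2-fold (median -0.09, 28797 and 27169 CPM), and the medians of astrocyte, oligodendrocyte, monocyte and neutrophil markers lay between -0.26 and 0.16. Endothelial, mural and choroid plexus cells do not carry CD45. The part of these other cells in the lower collagens was not tested. The stated tissue is spinal cord, and the source of the choroid plexus marker RNA was not tested either.

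**Figure D3:**
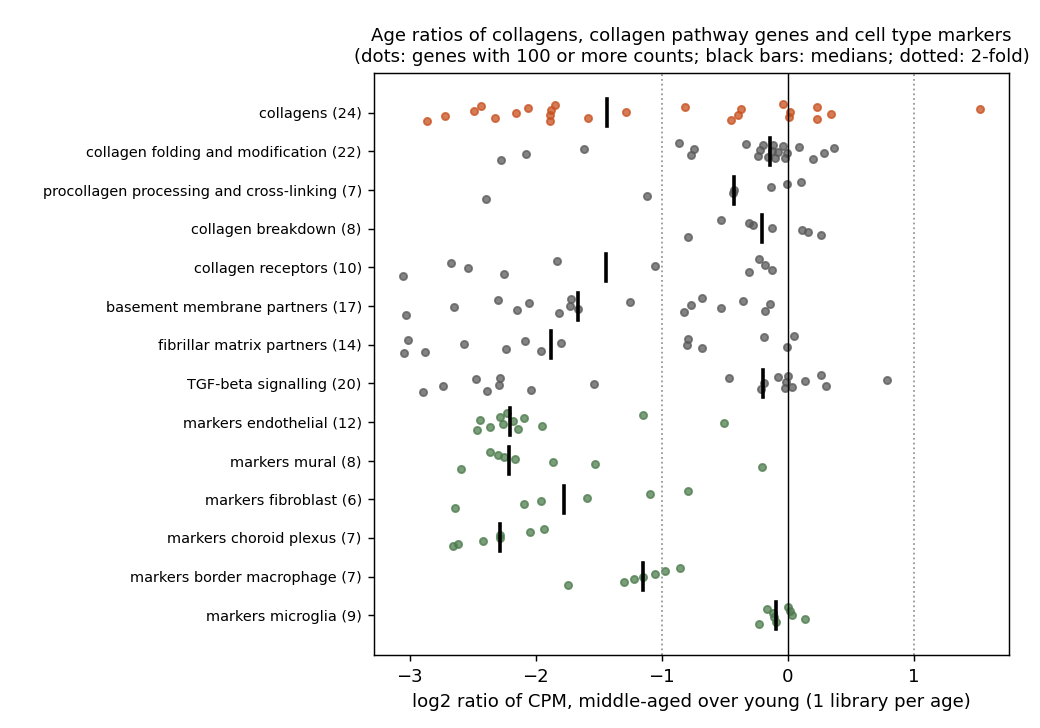
Log2 ratios of CPM, middle-aged over young, for collagens (24 genes), lists of the collagen pathway and cell type markers, with a dot for each gene with 100 or more counts and a black bar at the median. The medians of endothelial (-2.21), mural (-2.21), fibroblast (-1.77) and choroid plexus (-2.28) markers lie beyond 2-fold like that of collagens (-1.43), and that of microglial markers lies at -0.09.

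Single cells were used to ask which collagens microglia hold. Transcripts there were counted as UMIs, molecular barcodes by which copies of 1 captured transcript are counted once, and the deposited tables give a cluster number for each of 38057 cells. Of the deposited clusters, 10 (1344 cells, median 8214.5 UMIs) and 8 (2057 cells, median 2614 UMIs) had the highest levels of the 10 microglial markers. *Sall1*, *Sparc*, *Fcrls* and *Olfml3* were among the 10 leading genes of cluster 10, and *Olfml3* and *Tmem119* among those of cluster 8. *Tmem119* stood at 413 CPM in cluster 10 and at 182 CPM in cluster 8, against 1.68 CPM in cluster 4, which is B cell-like. Cluster 8 also held the neutrophil gene *S100a9* at 3518 CPM, against 1887 CPM in cluster 10, and its part in the values of cluster 8 was not tested. Of the 37903 distinct barcodes, 154 occurred in more than 1 library. These cells come from inflamed cords and the bulk libraries from naive cords, so levels cannot be set against each other directly.

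The single-cell tables hold a row for 32 of the 44 collagens. Of these, 7 had no UMI in any cell, 20 had a UMI in clusters 8 and 10, and 5 had UMIs elsewhere alone. Cluster 10 held 560 collagen UMIs, or 44.6 CPM, of which 72.0% were those of *Col27a1*. Cluster 8 held 73, or 10.5 CPM, and the other clusters together were at 11.2 CPM. Of the 6 fibroblast markers, *Dcn*, *Lum*, *Pdgfra* and *Igf2* were at 0 in both microglial clusters. *Slc6a13* (1.99 CPM in cluster 10 and 5.75 in cluster 8) and *Apod* (0.796 and 3.45 CPM) were not, and the list summed to 2.78 and 9.20 CPM, and the part of such RNA in the collagen level of cluster 8 was not tested. The pericyte gene *Rgs5* was at 0 in both clusters, and the 5 mural markers summed to 2.55 CPM in cluster 10 and 3.74 CPM in cluster 8. The 6 endothelial markers summed to 28.2 and 19.1 CPM, most of it *Flt1* (21.2 and 13.7 CPM), which stood at 143 CPM in cluster 1, while *Cldn5* was at 0.080 and 0.288 CPM.

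**Figure D4:**
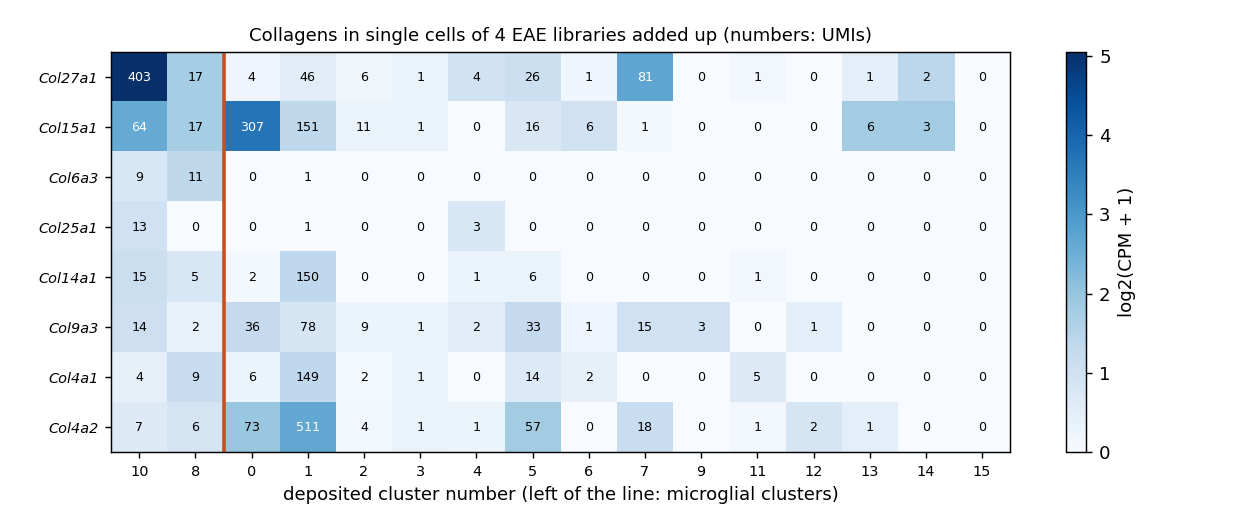
UMIs (numbers) and log2(CPM + 1) (shade) of the 8 collagens with 10 or more UMIs in clusters 8 and 10, by deposited cluster, with the microglial clusters left of the line. *Col27a1* is darkest in cluster 10 (403 UMIs), *Col6a3* has 20 of its 21 UMIs left of the line, and *Col4a1* and *Col4a2* have most of theirs in cluster 1.

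*Col27a1* lay mostly in microglial cluster 10 in these 4 libraries. Of its 593 UMIs, 403 (68.0%) lay in cluster 10, at 32.1 CPM [29.0 to 35.3], against 0.738 CPM over all clusters but 8 and 10. A further 81 lay in dendritic cell-like cluster 7 (5.58 CPM), and 17 in cluster 8 (2.44 CPM). *Col15a1* was held more widely. It had 583 UMIs, with 64 in cluster 10 (5.09 CPM [3.92 to 6.50]), 17 in cluster 8, 307 in cluster 0 and 151 in cluster 1, which is monocyte/macrophage-like. Cluster 0 held neutrophil markers, with *S100a9* at 23418 CPM and *Cxcr2* at 838 CPM, but was left unnamed, since none of its 10 leading genes is a listed marker and the neutrophil list did not have the highest median there.

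*Col6a3* was rare but nearly confined to the microglial clusters in these 4 libraries. It had 21 UMIs in 38057 cells, of which 20 (95.2%) lay in clusters 8 (11 UMIs) and 10 (9 UMIs), which hold 8.94% of all cells and 7.69% of all UMIs, and 1 in cluster 1. They came from 17 cells of these clusters, with at most 2 in a cell. No UMI was seen in the B cell-like cluster 4, whose cells are about as deep as those of cluster 8 (median 2697 UMIs). By library, clusters 8 and 10 held 0 *Col6a3* UMIs in young and 3 in middle-aged recipients on day 6, and 3 and 14 on day 10. With both days added up, 2 of 1711 cells from young recipients and 15 of 1690 from middle-aged recipients had a UMI, and the levels were 0.297 and 1.81 CPM, a log2 ratio of 2.60 [0.81 to 5.02].

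The ratio rested on few UMIs and largely on 1 library. Without the middle-aged day 10 library it was 1.46 [-1.44 to 4.36] from 3 and 3 UMIs, and in cluster 8 alone it was 1.15 [-0.91 to 3.70]. All 9 UMIs of cluster 10 were from that library, where 8 of 334 cells (2.40% [1.04 to 4.66]) had one, and the 3 other libraries had 0 of 432, 216 and 362 cells. At a limit of 3 counts, these allow shares of up to 0.694%, 1.39% and 0.829%, and the upper ends of the exact binomial intervals are 0.850%, 1.69% and 1.01%. Such limits bear on cells with a UMI, not on cells that express the gene. With clusters 8 and 10 added up, the interval of the age ratio lay above 0 on day 10 (2.29 [0.45 to 4.73]). On day 6, with no UMI in the young library, it reached down to -1.12. In cluster 8 alone the day 10 interval included 0 (-1.62 to 3.43). These intervals cover counting error only.

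The collagens that were lower in the bulk library had few UMIs in the microglial clusters. Of the 13, 10 have a row, and 43 of their 1140 UMIs (3.77%) lay in clusters 8 and 10, which hold 7.69% of all UMIs. This pooled share was carried by *Col4a2*, which had 682 of the 1140 UMIs and 1.91% of its own in the microglial clusters. For the 10 genes within 2-fold the pooled share was 28.8% of 1935 UMIs. That second share was carried by *Col27a1*, without which it was 137 of 1342 UMIs (10.2%). Of the 9 genes left, *Col1a1*, *Col23a1*, *Col11a2*, *Col20a1* and *Col5a1* had 2.63% to 4.65% of their UMIs in the microglial clusters, near the pooled share of the lower genes. *Col4a2* had 682 UMIs, of which 511 (74.9%) lay in cluster 1 (5.34 CPM) and 7 and 6 in clusters 10 and 8 (0.557 and 0.863 CPM). *Col4a1* had 192, of which 149 lay in cluster 1 and 4 and 9 in clusters 10 and 8. Its levels there were 0.318 and 1.29 CPM, against 0.764 CPM over the other clusters. *Col9a3* had 16 of 195 UMIs (8.21%) in the microglial clusters, near their share of all UMIs. *Col18a1* had 1 of 53 there, and 34 in T cell-like cluster 2. *Col1a2* (10 UMIs), *Col3a1* (3), *Col8a2* (3) and *Col6a2* (2) had none in clusters 8 and 10, and *Col5a2* and *Col8a1* had none in any cell. The cells had been sorted for CD45, which vessel and stromal cells lack, so the tables do not show what such cells held.

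The other genes with 10 or more UMIs in microglia were uneven between cells or libraries. *Col25a1* had 13 of its 17 UMIs in cluster 10, all from 11 cells of the young day 6 library. *Col14a1* had 15 UMIs in cluster 10, of which 10 came from 1 cell of the young day 10 library, and 150 of its 180 UMIs lay in cluster 1. *Col6a1*, the partner of *Col6a3*, had no UMI in any cell.

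Across the 4 libraries the collagen level of cluster 10 followed *Col27a1*. On day 6 all collagens together had a level of 67.5 CPM in the library of young recipients and 45.3 CPM in that of middle-aged recipients, and on day 10 of 27.3 and 38.3 CPM. *Col27a1* alone made up 55.9 CPM [48.2 to 64.3] of this level in the young library and 33.6 CPM [26.6 to 41.8] in the middle-aged library of day 6, and 14.8 CPM [11.0 to 19.4] and 24.4 CPM [19.3 to 30.4] of it on day 10. The young library was thus the higher on day 6 (log2 ratio -0.73 [-1.13 to -0.35]) and the middle-aged library on day 10 (0.72 [0.20 to 1.26]).

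On day 6, 30.3% of the 432 cells from young recipients had a *Col27a1* UMI (exact binomial interval 26.0 to 34.9), and 22.7% of the 216 from middle-aged recipients did (17.3 to 28.9). On day 10 the shares were 11.3% of 362 (8.25 to 15.1) and 18.6% of 334 cells (14.5 to 23.2). In cluster 4, at median depths of 2402 to 2997 UMIs, 0 of 295 and 1.63% of 184 cells had a UMI on day 6, and 0 of 543 and 0.296% of 338 did on day 10, where the exact intervals of the shares of 0 end at 1.24% and 0.677%. After thinning of the cells of cluster 10 to 2000 UMIs, for which 21, 2, 11 and 4 cells were too shallow, 10.9% and 7.48% of cells had a UMI on day 6, and 2.28% and 4.85% did on day 10. The libraries kept their order, but the exact intervals overlapped on day 6 (8.10 to 14.4 and 4.33 to 11.9). They did so on day 10 as well (0.989 to 4.44 and 2.80 to 7.75). *Col15a1* stood at 3.49 and 6.71 CPM on day 6 and at 5.12 and 5.56 CPM on day 10, with intervals of the age ratio that included 0 on both days (-0.23 to 2.16 and -0.91 to 1.15). In cluster 8 all collagens stood at 9.22 and 15.4 CPM on day 6 and at 7.58 and 11.2 CPM on day 10, with intervals of the age ratio that included 0 on both days (-0.63 to 2.34 and -0.33 to 1.49).

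**Figure D5:**
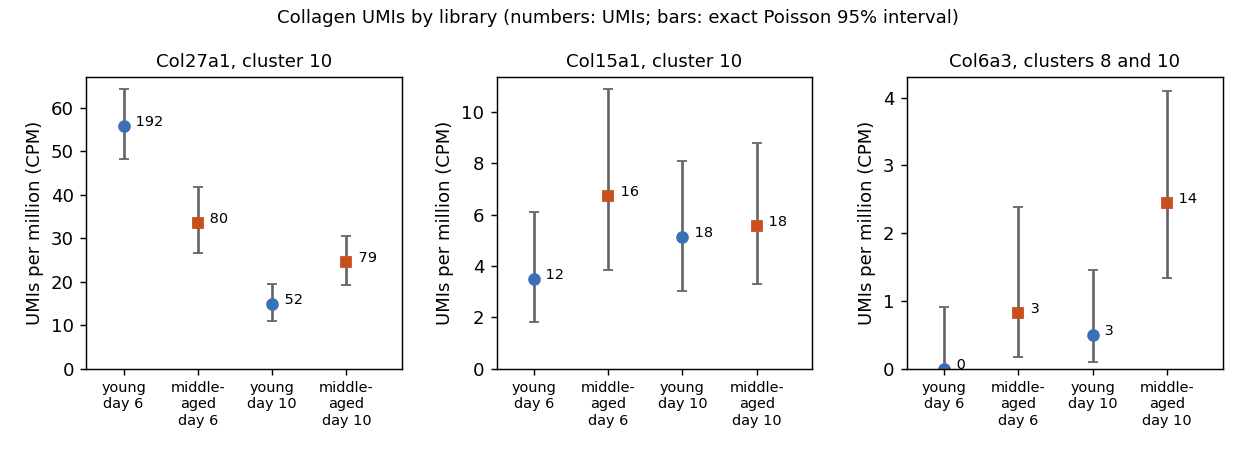
Level in CPM of *Col27a1* and *Col15a1* in cluster 10 and of *Col6a3* in clusters 8 and 10, by library, with circles for young and squares for middle-aged recipients, numbers for UMIs and bars for exact Poisson 95% intervals. *Col27a1* is highest in the young day 6 library (55.9 CPM), and 14 of the 20 *Col6a3* UMIs are from the middle-aged day 10 library.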

How the data were processed

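For the 2 bulk libraries the authors trimmed reads with fastp, aligned them to GRCm38.p6 with HISAT2 and counted them per Ensembl gene with featureCounts without regard to strand, and deposited raw read counts. At most 6.07% of the exon bases of any collagen gene lie under another gene. For the 4 single-cell libraries, per the labels and methods, Cell Ranger 3.1.0 and Seurat were used, and the authors deposited UMI counts of the cells that passed their filters, with cluster numbers. CPM, ratios and exact 95% intervals came from scipy 1.17.1 (Python 3.11.15). They were tested on simulated Poisson counts, which lack the excess of even counts seen here, so that test does not bear on it. Normalization factors came from edgeR 4.0.16, and exon lengths and positions from GENCODE vM21 on GRCm38. No doublet caller was run. With 1 library per age and day, no test was made.

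Collagens with 100 or more counts, or 10 or more UMIs in clusters 8 and 10, were named, and from other lists the 4 largest changes past 2-fold, or the 2 genes with most counts where fewer than 2 passed. Genes named outside this rule were chosen after their values were seen. The members and lists were chosen with earlier results of these data known.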

Additional observations from a re-analysis of the deposited data

Results flagged for a closer look

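The age ratio of *Col27a1* in microglial cluster 10 had opposite signs on the 2 days, with log2 ratios of -0.73 on day 6 and 0.72 on day 10. All collagens together in the same cluster did the same, with -0.57 on day 6 and 0.49 on day 10, and 72.0% of these UMIs were those of *Col27a1*. With cells thinned to 2000 UMIs, the log2 ratios of all collagens were -0.26 on day 6 and 0.47 on day 10. With 1 library per age and day, the difference between the days was not tested.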

How the results depend on the processing

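No paired analysis was possible because each age had 1 library, and no replicate could be left out. Under the alternatives, 48 values stayed within their counting error or 1.5 times their count, 18 moved and 1 turned its direction. TMM factors, RLE factors, a total without mitochondrial and ribosomal protein genes and *Gm26917*, and a prior of 5 counts left 13 collagens lower and 1 higher in bulk. The TMM factors were 1.00095 (young) and 0.999046 (middle-aged), and the RLE factors 1.00053 and 0.999473, so these factors could hardly move a ratio. Scaling by the microglial markers gave *Col6a3* a log2 ratio of 1.61. The minimum count mattered, where the main limit gave 13 of 24 genes lower. With 10 counts, 16 of 35 were lower and 2 higher, with a median of -0.81. With no minimum, 19 of 39 were lower and 3 higher, with a median of -0.98. These last calls include genes at 0 in 1 library, namely *Col22a1* (1 and 0 counts), *Col28a1* (8 and 0) and *Col11a1* (0 and 2). With 500 counts, 8 of 12 were lower, with a median of -1.89. No share of all genes past 2-fold is given for these other limits. The genes tested differ between these limits by construction.

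Without the 10 cells of each library that held the most collagen UMIs, the level of cluster 10 was 57.9 (young) and 31.8 CPM (middle-aged) on day 6 and 19.1 and 31.4 on day 10, and that of cluster 8 was 0 and 6.46, then 2.45 and 6.09. With cells thinned to 2000 UMIs, cluster 10 on day 6 was at 73.0 (young) and 60.7 CPM (middle-aged), from 60 and 26 UMIs, an age ratio of -0.26. Cluster 8 on day 10 was at 13.3 (young) and 7.40 (middle-aged), from 13 and 7 UMIs of a random draw. This turned its age ratio to -0.84, where the interval without thinning already included 0. The cause of the turn was not tested. The *Col6a3* ratios by day and cluster in the single cells, the halved counts and the share without *Col27a1* were chosen after seeing the data. Counts under 100 in bulk and the few UMIs of most collagens limit what could be read.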
